A study of Homo sapiens with 4 samples.

Results

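The neurofilament and neuronal cytoskeleton genes described here are the 10 genes *NEFL*, *NEFM*, *NEFH*, *INA*, *PRPH*, *MAP2*, *MAPT*, *GAP43*, *STMN2* and *DCX*. They were taken by symbol from a table of 57820 genes, and their counts were summed over the listed transcripts of each gene. All 10 were found, and all 10 passed the filter on low counts that left 20528 genes for testing. They were measured by RNA-seq in SK-N-SH, an established human neuroblastoma cell line. 2 libraries came from cells transduced with a lentivirus that carries *RP5-998N21.4* behind the EF1a promoter (OE), and 2 from cells that received the same lentivirus vector without an insert (vector control). All 4 libraries are therefore from transduced cells, and the control libraries are titled WT while their treatment label names the empty vector, which was followed. The labels do not say whether the libraries of a group came from separate cultures, so the tests measure only the spread between these libraries, which may be technical.

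Neurofilaments are the intermediate filaments of neurons. They are built from a light, a medium and a heavy subunit (*NEFL*, *NEFM* and *NEFH*) together with alpha-internexin (*INA*) or, in peripheral neurons, peripherin (*PRPH*). Doublecortin (*DCX*) binds microtubules in migrating immature neurons, *MAP2* and tau (*MAPT*) stabilize the microtubules of dendrites and axons, stathmin 2 (*STMN2*) binds tubulin in growth cones, and *GAP43* is a phosphoprotein of the growth cone membrane. Neuroblastoma cells derive from the sympathetic lineage and many lines express these genes, which are commonly used as markers of a neuronal state. In hg19, *DCX* (ENSG00000077279.12) spans bases 110537007 to 110655657 of chromosome X (minus strand), *INA* (ENSG00000148798.5) spans bases 105036895 to 105050103 of chromosome 10 (plus strand) and *PRPH* (ENSG00000135406.9) spans bases 49688930 to 49692469 of chromosome 12 (plus strand). *GAP43* (ENSG00000172020.8) spans bases 115342357 to 115440337 of chromosome 3 (plus strand), *MAP2* (ENSG00000078018.15) spans bases 210288771 to 210598871 of chromosome 2 (plus strand), *MAPT* (ENSG00000186868.11) spans bases 43971893 to 44105700 of chromosome 17 (plus strand) and *NEFH* (ENSG00000100285.9) spans bases 29876207 to 29887379 of chromosome 22 (plus strand).

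The promoters of the 3 genes with the largest differences that could be matched (*DCX*, *PRPH* and *INA*) and of *GAP43*, whose groups overlapped, are shown to let their sequence be compared. Each is the 250 bases before the first RefSeq start listed for the gene (GRCh38.p14), at chrX:111412193-111412442 on the minus strand for *DCX*, chr12:49294897-49295146 on the plus strand for *PRPH*, chr10:103276888-103277137 on the plus strand for *INA* and chr3:115623260-115623509 on the plus strand for *GAP43*. RefSeq starts were matched for 5 of the 10 genes, with 3 starts for *DCX*, of which the first is shown. Capitals mark matches on either strand to TATAAA (the TATA box), CANNTG (the E-box, bound by basic helix-loop-helix factors) or TAATTA (a core of homeodomain sites).
DCX: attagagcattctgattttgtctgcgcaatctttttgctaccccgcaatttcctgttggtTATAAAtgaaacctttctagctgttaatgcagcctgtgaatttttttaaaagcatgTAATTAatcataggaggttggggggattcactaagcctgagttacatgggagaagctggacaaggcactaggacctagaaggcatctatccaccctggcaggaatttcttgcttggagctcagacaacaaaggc
PRPH: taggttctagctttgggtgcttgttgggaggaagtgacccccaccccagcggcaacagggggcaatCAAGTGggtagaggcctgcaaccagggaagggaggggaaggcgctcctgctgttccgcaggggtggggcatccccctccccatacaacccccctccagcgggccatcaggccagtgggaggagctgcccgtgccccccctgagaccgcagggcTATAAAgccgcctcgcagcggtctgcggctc
INA: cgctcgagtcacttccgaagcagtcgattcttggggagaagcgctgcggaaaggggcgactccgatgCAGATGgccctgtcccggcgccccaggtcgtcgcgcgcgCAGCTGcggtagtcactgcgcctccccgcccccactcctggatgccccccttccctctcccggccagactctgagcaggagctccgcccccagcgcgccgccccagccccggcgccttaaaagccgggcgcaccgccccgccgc
GAP43: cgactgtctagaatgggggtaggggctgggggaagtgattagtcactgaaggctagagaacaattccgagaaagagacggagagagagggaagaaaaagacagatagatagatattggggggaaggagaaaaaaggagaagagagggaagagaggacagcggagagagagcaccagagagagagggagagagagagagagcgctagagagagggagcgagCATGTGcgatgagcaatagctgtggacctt

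The *PRPH* window held TATAAA 31 bases before the start, and the *DCX* window held it 190 bases before the start. TATAAA was found in 10.7% of the 35116 windows of the same length in the RefSeq table. The *DCX* window also held TAATTA 134 bases before the start, a sequence found in 4.35% of all windows. The *INA* window held 2 E-boxes, 183 and 144 bases before the start, the *PRPH* window 1 and the *GAP43* window 1, while 61.8% of all windows held at least 1. The window of *DCX* start 2 overlaps the one shown and held only the same TAATTA site, 229 bases before that start. The window of start 3 held 3 E-boxes alone, at 177, 105 and 73 bases. No match overlapped another. TTCAGCACC, the left part of the RE1 element bound by the repressor REST, was found in 0.288% of all windows and was not among the letters of these 4.

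Library totals ranged from 23785164 to 28307591 counts, and the TMM normalization factors from 0.976 to 1.02. Expression is given in CPM, the count of a gene scaled to a common library size after TMM normalization. The overexpressed *RP5-998N21.4* was at 1.37 and 1.40 CPM in the vector control libraries and at 95.9 and 97.1 CPM in the OE libraries. An exact permutation test of 2 libraries against 2 cannot give a two-sided p below 0.333, so differences were tested in a fit across all genes (edgeR's quasi-likelihood test). A gene is said to have risen or fallen only where its adjusted p was under 0.05.

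*DCX* rose in the *RP5-998N21.4* OE libraries, 2.62-fold. *PRPH*, *INA*, *NEFL* and *STMN2* had higher values in both OE libraries than in both vector control libraries, by 3.33-fold, 1.90-fold, 1.61-fold and 1.46-fold, without passing the adjusted threshold. *NEFH* and *NEFM* were 1.40-fold and 1.28-fold higher in the mean, with no overlap between the groups, while *MAP2*, *MAPT* and *GAP43* overlapped. Summed over the 10 genes, expression was 366 and 387 CPM in the vector control and 640 and 602 CPM in the OE libraries. The plot of CPM by library shows each value.

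**Figure D1:**
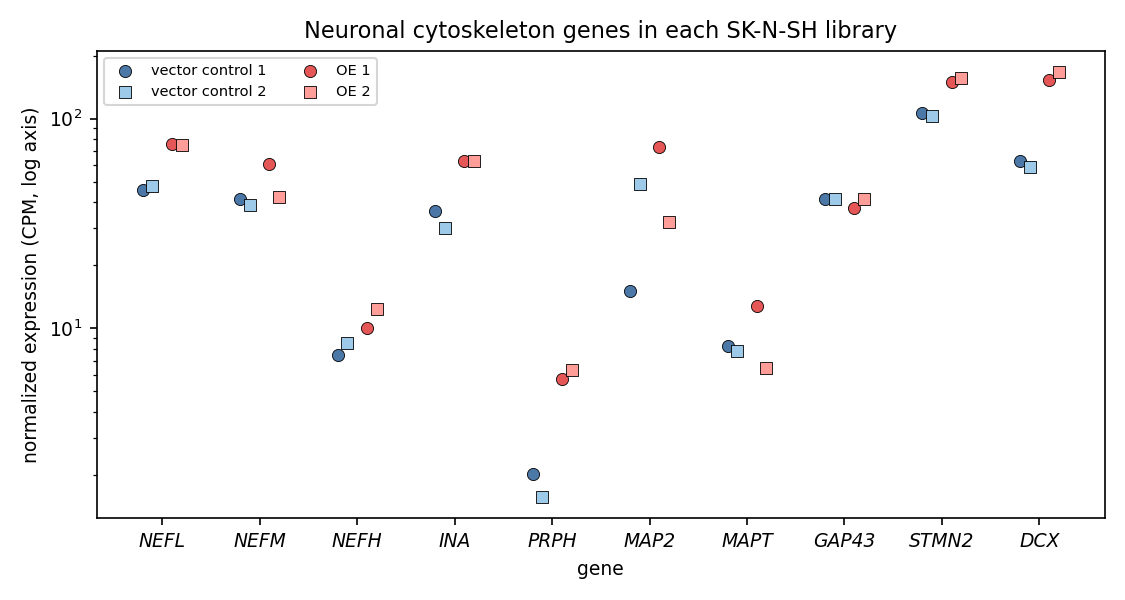
Normalized expression (CPM, log axis) of the 10 genes in each of the 4 libraries, 1 point per library, with circles for replicate 1 and squares for replicate 2. *DCX*, *PRPH*, *INA*, *NEFL* and *STMN2* sit clearly higher in both OE libraries, *GAP43* lies between 37.7 and 41.6 CPM in all 4, and the replicates of *MAP2* lie far apart in both groups.

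With edgeR's adjusted p, 1 of the 10 genes was called, higher in OE, against 0.594% of all 20528 tested genes (0.283% called higher). At an unadjusted p under 0.05, 5 of the 10 were higher and 0 were lower, where 20.8% of all tested genes passed, 10.1% higher and 10.7% lower. The groups did not overlap in 7 of the 10, all higher in OE, a pattern held by 27.8% of all tested genes, while 27.6% were lower without overlap. The median log2 fold change was 0.61 over the 10 genes and 0.01 over all tested genes. In DESeq2's Wald test, the study's own tool, *DCX*, *PRPH*, *INA*, *NEFL* and *STMN2* passed the study's thresholds (adjusted p under 0.01 and a log2 fold change beyond 0.5), 5 of the 10 genes against 8.77% of all tested genes (4.35% higher).

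**Figure D2:**
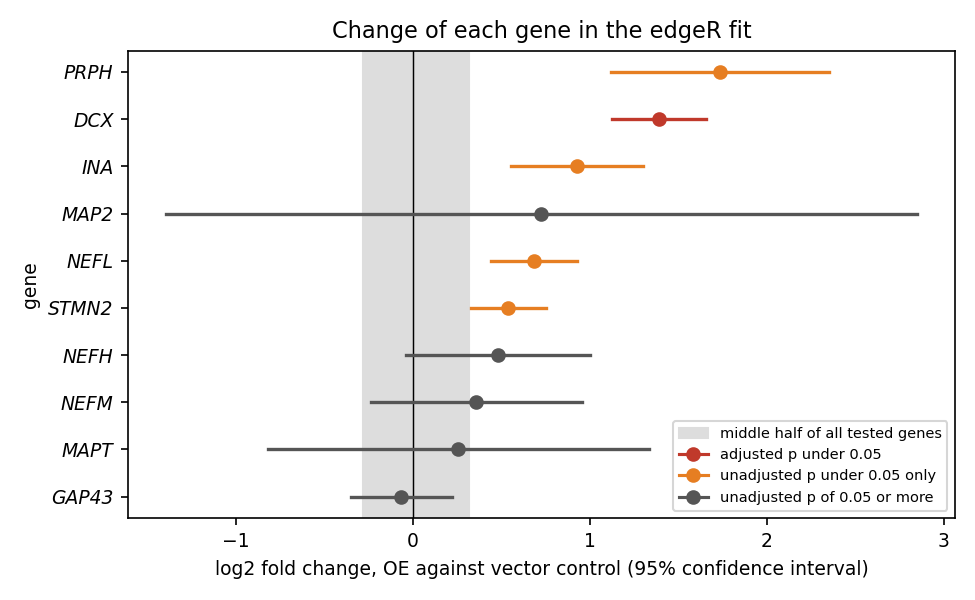
Log2 fold change of each gene, OE against vector control, from edgeR's fit (points) with its 95% confidence interval (lines). The grey band spans the lower to the upper quartile of all tested genes, from -0.28 to 0.32. The intervals of *PRPH*, *DCX*, *INA*, *NEFL* and *STMN2* lie above 0, and those of the other genes include it.

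*DCX* was at 62.5 and 59.0 CPM in the vector control libraries and at 152 and 167 CPM in the OE libraries. The lowest OE library was thus more than 2-fold above the highest vector control library. The means were 60.8 ± 2.48 CPM (SD, n = 2) and 160 ± 10.4 CPM (SD, n = 2). The log2 fold change was 1.39 (standard error, SE, 0.0927, 95% confidence interval 1.13 to 1.66, edgeR adjusted p = 0.0415). The size held when each library was left out in turn, but the call did not. The log2 fold change was then 1.43 without vector control replicate 1, 1.35 without vector control replicate 2, 1.46 without OE replicate 1 and 1.32 without OE replicate 2, with adjusted p of 0.119, 0.115, 0.0931 and 0.096.

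Among the filament subunits, *NEFL*, the light subunit on which neurofilaments assemble, was at 45.7 and 47.6 CPM in the vector control and at 75.4 and 74.7 CPM in the OE libraries. Both pairs of replicates lay close together and the groups were well apart (log2 fold change 0.69, SE 0.0853, edgeR adjusted p = 0.0766). *INA* was at 36.3 and 30.0 CPM in the vector control and at 63.1 and 62.9 CPM in the OE libraries. Its OE replicates were almost equal, and its log2 fold change was 0.93 (SE 0.131, edgeR adjusted p = 0.0842). *PRPH* was the least abundant of the 10 in the vector control, with 47 and 37 counts against 143 and 182 counts in OE, or 2.02 and 1.58 CPM against 5.70 and 6.29 CPM. Its log2 fold change of 1.74 was the largest of the 10 (SE 0.216, 95% confidence interval 1.12 to 2.35, edgeR adjusted p = 0.0764).

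Exons of *PRPH* overlap those of *TROAP-AS1*, a noncoding gene on the opposite strand, for which the vector control libraries held 5 and 13 counts and the OE libraries 55 and 46. The use of strand in counting is not stated, and without strand, reads of the 2 genes cannot be told apart. Exons of *INA* likewise overlap *NT5C2* on the opposite strand, which had from 135 to 157 counts in the 4 libraries.

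The values of the medium and heavy subunits lay closer between the groups. *NEFM* (ENSG00000104722.9) and *NEFL* (ENSG00000104725.9) are neighbours on chromosome 8, 31.9 kb apart with their 3′ ends facing each other, and *STMN2* (ENSG00000104435.9) lies elsewhere on that chromosome. *NEFM* was at 41.3 and 38.9 CPM in the vector control and at 60.6 and 42.3 CPM in the OE libraries. OE replicate 2 was barely above the vector control, and the log2 fold change of 0.36 (SE 0.209, edgeR adjusted p = 0.414) was 0.60 without OE replicate 2 and 0.08 without OE replicate 1. Exons of *NEFM* overlap those of ENSG00000272163 on the opposite strand, for which 40 and 93 counts were listed in the vector control and 61 and 124 in OE. *NEFH*, the subunit with the long phosphorylated tail, was at 7.43 and 8.55 CPM in the vector control and at 10.0 and 12.3 CPM in the OE libraries. Its log2 fold change was 0.48 (SE 0.182, 95% confidence interval -0.04 to 1.00, edgeR adjusted p = 0.262). Counted against *NEFL* in the same library, *NEFM* gave 0.904 and 0.817 counts per *NEFL* count in the vector control and 0.804 and 0.566 in OE. *PRPH* gave 0.0442 and 0.0331 counts per *NEFL* count in the vector control and 0.0756 and 0.0842 in OE, higher in each OE library.

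The 2 growth cone genes differed from each other. *STMN2* was at 106 and 103 CPM in the vector control and at 149 and 156 CPM in the OE libraries, with a log2 fold change of 0.54 (SE 0.0736, 95% confidence interval 0.33 to 0.75, edgeR adjusted p = 0.080). *GAP43* was at 41.4 and 41.5 CPM in the vector control and at 37.7 and 41.6 CPM in the OE libraries. Its log2 fold change was -0.06 (adjusted p = 0.764), and its 95% confidence interval of -0.35 to 0.22 lies entirely below the interval of *STMN2*. In counts per *GAP43* count of the same library, *STMN2* was at 2.57 and 2.49 in the vector control and at 3.96 and 3.75 in OE. *DCX* was at 1.51 and 1.42 counts per *GAP43* count in the vector control and at 4.04 and 4.01 in OE. Both ratios, which do not depend on the library size, were higher in each OE library than in each vector control library.

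For the microtubule-binding proteins *MAP2* and tau, the libraries of at least 1 group lay far apart and the groups overlapped. *MAP2* was at 15.1 and 48.5 CPM in the vector control and at 73.2 and 32.1 CPM in the OE libraries. Each group spanned more than 2-fold, and the log2 fold change of 0.73 had a standard error of 0.745 (edgeR adjusted p = 0.637). It was 0.11 when vector control replicate 1 was left out and 1.80 when replicate 2 was, and 0.01 without OE replicate 1 and 1.20 without OE replicate 2. *MAPT* was at 8.25 and 7.79 CPM in the vector control and at 12.7 and 6.47 CPM in the OE libraries. One OE library was above and one below the vector control, with a log2 fold change of 0.26 (SE 0.377, edgeR adjusted p = 0.748) that became -0.31 without OE replicate 1.

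The counts were given per transcript, and they show where the replicates of these genes part. *DCX* had counts on 2 of its 8 listed transcripts. In vector control replicate 2, all 1387 counts were on ENST00000338081, while the other 3 libraries had 1456, 3818 and 4828 counts on ENST00000371993. Vector control replicate 2 had 0 counts on ENST00000371993, which is read as below 3 counts assigned to it and not as absence of the transcript. The gene sums of the vector control replicates agreed closely although the transcripts did not. With ENST00000371993 alone in place of the sum, the log2 fold change of *DCX* was 2.35 (edgeR adjusted p = 0.796).

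*MAP2* had counts on 5 of its 16 listed transcripts. ENST00000360351, which encodes a long form of 1827 amino acids, held 141 of 351 counts in vector control replicate 1, 1123 of 1140 in vector control replicate 2, 1740 of 1837 in OE replicate 1 and 542 of 928 in OE replicate 2. ENST00000199940, a short form of 559 amino acids, held 156, 3, 65 and 237 counts in the same order. The 2 libraries with the lower *MAP2* sums, 1 of each group, were those with more counts on the short form. *MAPT* had counts on 4 of 19 transcripts, and ENST00000344290 held nearly all of them except in OE replicate 2, where it held 110 of 187 and the retained-intron transcript ENST00000576518 held 65. *NEFM* had 147 of 1224 counts of OE replicate 2 on ENST00000433454, against 0, 8 and 17 counts in the other libraries.

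*NEFL*, *NEFH*, *INA*, *PRPH* and *GAP43* had counts on 1 transcript each, so that their sums did not depend on how reads were divided among their own transcripts. *STMN2* had 35 of 3742 counts of OE replicate 1 and no counts of the other libraries on ENST00000518491, and 4 and 5 counts of the OE libraries on ENST00000518111. Among the 11407 tested genes with counts in all libraries on at least 2 transcripts, the leading transcript differed between libraries in 3575 (31.3%), and among the 5 such genes described here it differed in *DCX* and *MAP2*. The plot of counts by transcript shows the 4 genes with the most divided counts.

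**Figure D3:**
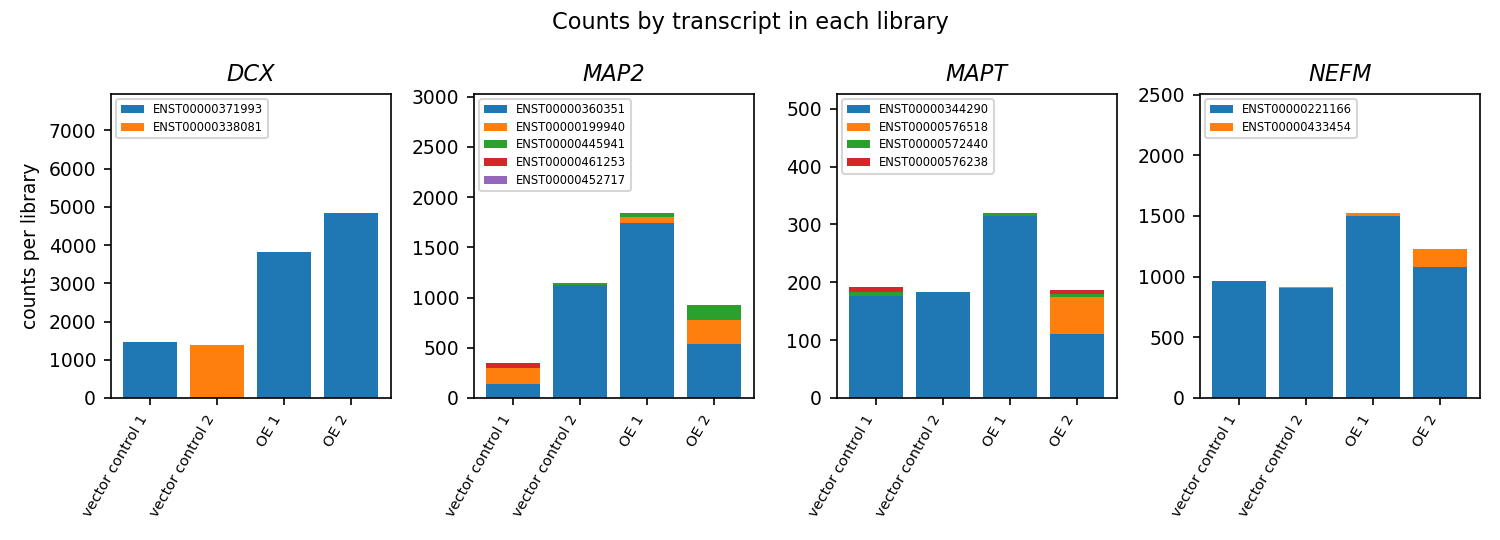
Counts by transcript for *DCX*, *MAP2*, *MAPT* and *NEFM* in each library (stacked bars, linear axes that start at 0 and differ between genes). The *DCX* counts of vector control 2 are all on ENST00000338081, and ENST00000360351 holds 40.2% and 58.4% of the *MAP2* counts of vector control 1 and OE 2, against 98.5% and 94.7% in vector control 2 and OE 1.

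Levels of different genes were compared per length, in CPM per kilobase of 1 transcript of each gene. This length was 8918 bases for *DCX* (ENST00000371993) and 9711 bases for *MAP2* (ENST00000360351). It does not match all libraries, since the *DCX* counts of vector control replicate 2 were on another transcript and 44.4% of the *MAP2* counts of vector control replicate 1 were on a transcript of 2241 bases. For these 2 genes, as for the others, the counts of all transcripts were summed and divided by that 1 length. *STMN2* was the most abundant, at 55.1 ± 1.19 CPM per kilobase (SD, n = 2) in the vector control and 80.2 ± 2.60 (SD, n = 2) in OE. It was followed by *GAP43* at 27.7 ± 0.0661 in the vector control and 26.5 ± 1.86 in OE. *NEFL*, *NEFM* and *INA* were at 13.0, 12.3 and 10.2 CPM per kilobase in the vector control and at 20.95, 15.7 and 19.4 in OE. *DCX* was at 6.82 in the vector control, below these 3 filament genes, and at 17.9 in OE, where it stood between *INA* and *NEFM* and its libraries overlapped those of *NEFM*. The other 4 genes were at 3.27 (*MAP2*), 3.07 (*MAPT*), 2.11 (*NEFH*) and 0.998 (*PRPH*) CPM per kilobase in the vector control. In OE they were at 5.42, 3.67, 2.94 and 3.33, an order in which each neighbour overlapped the next. In the vector control, neighbours in the order overlapped only for *MAP2* and *MAPT*. The length of *NEFL* is that of the canonical transcript of its symbol, because the annotation lists it under another gene ID.

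Further genes of the neuronal cytoskeleton were taken from lists. In edgeR's test, 0.594% of all tested genes passed the adjusted threshold, and 10.1% were higher and 10.7% lower at an unadjusted p under 0.05. Of 11 stathmins, collapsin response mediators and doublecortin kinases, 0 passed the adjusted threshold in edgeR's test, and 5 were higher and 2 lower at an unadjusted p under 0.05 (median log2 fold change 0.54). DESeq2 (same adjusted threshold) called 5 of them higher and 2 lower, where it called 9.32% of all tested genes higher and 10.5% lower. *DPYSL5* was at 36.3 and 41.5 CPM in the vector control and at 68.9 and 73.6 CPM in OE (log2 fold change 0.87, edgeR adjusted p = 0.0791), and *CRMP1* had a log2 fold change of 0.65 (adjusted p = 0.0792). Both belong to the family that carries semaphorin signals to the growth cone cytoskeleton. *DPYSL3*, the most abundant of the list, was at 429 and 428 CPM in the vector control and at 344 and 292 CPM in OE (log2 fold change -0.43, adjusted p = 0.145).

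Of 9 tested growth cone membrane proteins, 0 passed the adjusted threshold in edgeR's test, 3 were higher and 2 lower at the unadjusted one, and DESeq2 called 3 higher and 2 lower (median 0.56). The shares over all tested genes were 10.1% higher and 10.7% lower at the unadjusted threshold, and 9.32% and 10.5% with DESeq2. *CAP1* and *NCAM1*, among the genes above this list median, had log2 fold changes of 0.83 and 0.69 with standard errors of 1.9 and 0.819. Their groups overlapped. *L1CAM*, an adhesion molecule of growing axons, was at 27.6 and 30.4 CPM in the vector control and at 59.0 and 55.9 CPM in OE (log2 fold change 0.98, edgeR adjusted p = 0.066). *BASP1*, a growth cone phosphoprotein related in function to *GAP43*, was at 262 and 259 CPM in the vector control and at 201 and 193 CPM in OE (log2 fold change -0.40, adjusted p = 0.0921). *MARCKS*, the most abundant of them, had a log2 fold change of 0.07 (adjusted p = 0.433).

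Of 9 other intermediate filaments tested, 0 passed the adjusted threshold in edgeR's test, 0 were higher and 4 lower at the unadjusted one, and DESeq2 called 0 higher and 4 lower (median -0.45). Among all tested genes, 10.1% were higher and 10.7% lower at the unadjusted threshold, and 9.32% and 10.5% with DESeq2. *NES*, the nestin of neural progenitors, was at 526 and 515 CPM in the vector control and at 325 and 310 CPM in OE (log2 fold change -0.71, SE 0.0552, edgeR adjusted p = 0.0507). *LMNB2*, a nuclear lamin, had a log2 fold change of -0.45 (adjusted p = 0.075). *VIM*, the vimentin of mesenchymal cells, was at 348 and 350 CPM in the vector control, at 1254 CPM in OE replicate 1 and at 376 CPM in OE replicate 2. Its log2 fold change of 1.22 (adjusted p = 0.367) was 0.11 without OE replicate 1 and 1.84 without OE replicate 2 (edgeR adjusted p = 0.047).

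Of 14 other microtubule-associated proteins, 1 fell and 0 rose, at the unadjusted threshold 0 were higher and 2 lower, and DESeq2 called 0 higher and 3 lower (median -0.07). Over all tested genes, 0.594% passed the adjusted threshold in edgeR's test. At the unadjusted one 10.1% were higher and 10.7% lower, and with DESeq2 9.32% and 10.5%. *MAP1A*, a microtubule-associated protein of mature neurons, was at 401 and 385 CPM in the vector control and at 215 and 219 CPM in OE. It fell by 0.86 on the log2 scale (SE 0.0577, edgeR adjusted p = 0.0415), with adjusted p between 0.0992 and 0.121 when each library was left out in turn. *MAP1B*, its relative in growing axons and the most abundant of the list, had a log2 fold change of -0.28 (adjusted p = 0.119).

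Kinases, linkers, motors and RNA regulators held no gene that passed the adjusted threshold in edgeR's test. At an unadjusted p under 0.05, 10.1% of all tested genes were higher and 10.7% lower. Of 11 tau and neurofilament kinases, 1 was higher and 0 lower at this threshold (median 0.17). It was *CDK5R2*, an activator of CDK5, at 9.75 and 7.79 CPM in the vector control and 19.8 and 24.8 CPM in OE (log2 fold change 1.35, edgeR adjusted p = 0.0921). *MARK3* had a log2 fold change of 0.22 (adjusted p = 0.275), and *GSK3B* one of -0.06 (adjusted p = 0.725). Of 8 cytoskeletal linkers, 1 was higher and 0 lower (median -0.04). It was *ANK2*, which links spectrin to the membrane (log2 fold change 1.22, adjusted p = 0.095), while *MACF1* and *PLEC* had log2 fold changes of -0.23 and -0.26 (adjusted p = 0.296 and 0.440). That of *MACF1* was -0.14 and -0.33 without vector control replicates 1 and 2, and that of *PLEC* was -0.06 and -0.50 without OE replicates 1 and 2.

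Of 8 axonal transport motors, 2 were higher and 0 lower at the unadjusted threshold (median 0.18). The shares over all tested genes were 10.1% higher and 10.7% lower. *KIF1A*, the kinesin of synaptic vesicle precursors, had a vector control mean of 32.2 ± 2.55 CPM (SD, n = 2) and an OE mean of 78.7 ± 1.26 CPM (SD, n = 2) (log2 fold change 1.29, SE 0.104, edgeR adjusted p = 0.0521). *KIF5C*, a kinesin heavy chain of neurons, had a log2 fold change of 0.52 (adjusted p = 0.122), and *DYNC1H1* one of 0.03 (adjusted p = 0.921). Of 9 tested neuronal RNA regulators, 1 was higher and 1 lower (median 0.10). *ELAVL3*, an RNA-binding protein of neurons, was at 33.2 and 31.9 CPM in the vector control and at 64.1 and 62.8 CPM in OE (log2 fold change 0.96, adjusted p = 0.0615). *NOVA1* had a log2 fold change of -0.38 (adjusted p = 0.211), and *PTBP1* one of 0.10 (adjusted p = 0.683). DESeq2 called 2 kinases, 1 linker, 2 motors and 1 RNA regulator higher, and 1 motor and 2 RNA regulators lower. Among all tested genes it called 9.32% higher and 10.5% lower.

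The labelled cell type was checked on marker genes. Of 8 neuroblastoma markers, 7 were tested and *TH*, which encodes the first enzyme of catecholamine synthesis, had 0 counts in all 4 libraries (below 3 counts in each). In edgeR's test 2 rose and 0 fell, 5 were higher and 0 lower at the unadjusted threshold, and DESeq2 called 5 higher and 0 lower. Over all tested genes, 0.283% rose, 10.1% were higher at the unadjusted threshold, and DESeq2 called 9.32% higher. All 7 tested markers were higher in both OE libraries than in both vector control libraries, as were 27.8% of all tested genes. Their median log2 fold change was 1.01, and their summed level was 410 and 479 CPM in the vector control and 809 and 761 CPM in OE. *CHGA*, the chromogranin of secretory granules, rose. Its libraries were at 49.7 and 48.6 CPM without the insert and at 136 and 121 CPM with it (log2 fold change 1.39, edgeR adjusted p = 0.0449). *HAND2* had a log2 fold change of 0.47 (adjusted p = 0.110). The summed level of these markers, like *DCX*, was higher in both OE libraries, and the part of the markers in the *DCX* result was not tested. In bulk RNA, a different share of cells of a type and a different amount of RNA per cell cannot be told apart. The call of *CHGA* was also lost when any 1 library was left out, with log2 fold changes between 1.31 and 1.47.

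Of 6 general neuron markers, 1 fell, and at the unadjusted threshold 1 was higher and 2 lower (median 0.01). Among all tested genes, 0.594% passed the adjusted threshold in edgeR's test, and 10.1% were higher and 10.7% lower at the unadjusted one. DESeq2 called 10.5% of them lower. *TUBB3*, a neuronal tubulin, was at 318 and 340 CPM in the vector control and at 91.7 and 93.2 CPM in OE. It fell by 1.83 on the log2 scale (SE 0.0704, edgeR adjusted p = 0.023), opposite to *DCX*, with adjusted p between 0.0567 and 0.0655 when each library was left out in turn. *UCHL1*, a neuronal ubiquitin hydrolase, was at 189 and 188 CPM in the vector control and at 107 and 138 CPM in OE (log2 fold change -0.62, adjusted p = 0.151). *THY1* was at 179 and 635 CPM in the vector control and at 428 and 440 CPM in OE, so that its groups overlapped. Of 9 glial, Schwann and blood cell markers, 4 were tested, *AQP4* and *HBB* had 0 counts in all libraries, and in edgeR's test 0 passed the adjusted threshold while 1 was lower at the unadjusted one, as it was in DESeq2. Their summed level was 16.8 and 17.0 CPM in the vector control and 3.75 and 7.57 CPM in OE, with *CD68* at 10.3 and 10.1 CPM in the vector control and at 0.0797 and 4.36 CPM in OE, and the part of these cells in the results above was not tested.

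**Figure D4:**
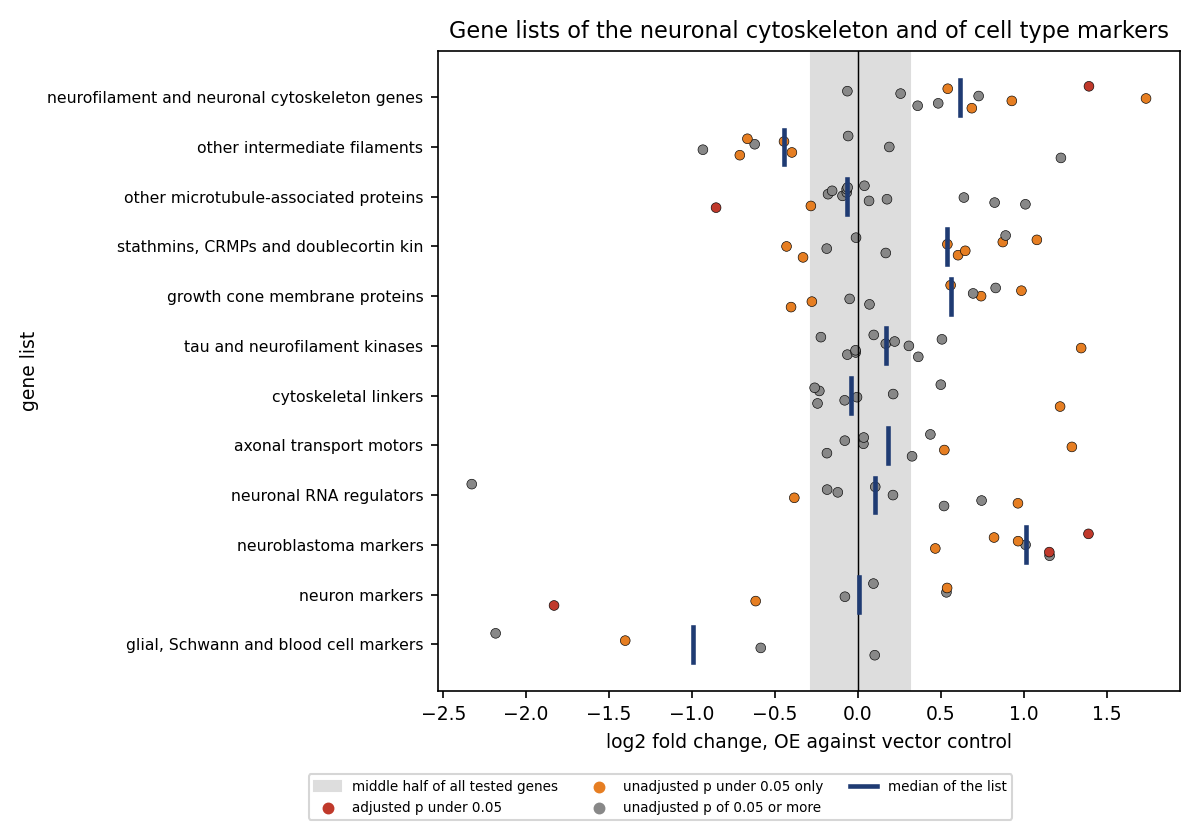
Log2 fold change, OE against vector control, of each tested gene of the 12 lists (points, coloured by the p of edgeR's test), with the median of each list (vertical bars). The grey band spans the lower to the upper quartile of all tested genes. The medians of the neurofilament and neuronal cytoskeleton genes (0.61), the stathmin list (0.54), the growth cone list (0.56) and the neuroblastoma markers (1.01) lie above the band, and those of the other intermediate filaments (-0.45) and of the glial, Schwann and blood cell markers (-0.99) lie below it.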

How the data were processed

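Reads were trimmed with Trimmomatic and aligned by Bowtie2 to hg19 by the authors. The deposited values are raw read counts for each transcript. The submitters' processing notes name Bowtie2 2.0.4, Picard 2.21.6, StringTie 2.1.6 and DESeq2. The annotation release and the use of strand are not given in the sources used here. Counts of 196520 transcripts were summed per gene.

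Low genes were removed by filterByExpr, library sizes were scaled by TMM, and the quasi-likelihood test of edgeR 4.0.16 (legacy setting, R 4.3.3) compared 2 libraries against 2 without covariates, with Benjamini-Hochberg adjustment over all tested genes and a threshold of 0.05. The fit had 1.75 prior and 2 residual degrees of freedom, and the confidence intervals used their sum. DESeq2 1.42.0 and limma-voom (limma 3.58.1) were among 15 alternatives. The script was tested on simulated counts. Positions and lengths came from the GENCODE annotation lifted to GRCh37, and promoter sequences from RefSeq (GRCh38.p14).

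The genes described, the further lists and the tests were chosen with earlier results of these data known. Named beside the 10 genes were list members with a mean of at least 10 CPM that passed the adjusted threshold, had 1 of the 2 smallest p of their list or were its most abundant gene. *TUBB3* is listed under 2 gene IDs, of which the one with counts was used. Results for some list genes that this rule names are not reported here.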

Additional observations from a re-analysis of the deposited data

How the results depend on the processing

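The number of the 10 genes with an adjusted p under 0.05 was 1 in edgeR's test, 5 with DESeq2, 5 with robust dispersions, 0 with the highest transcript only and 0 when each library was left out in turn. Over all genes this number was 122 in edgeR's test, 4064 with DESeq2, 299 with limma-voom, 647 with robust dispersions, 9 with the highest transcript only and from 32 to 75 with 1 library left out. The 2 libraries of each group carry the numbers 1 and 2 in the titles. With a replicate block, 0 of the 10 genes and 0 of all genes passed the adjusted threshold, and the log2 fold change of *DCX* stayed at 1.39 (adjusted p = 0.296). Deviations of same-numbered libraries from their group means had a correlation of -0.0114 over genes, so that the numbers were not read as pairs. The adjusted p of *DCX* ranged from 5.064e-43 to 0.796 over the 15 alternatives and was under 0.05 in 9 of them. The log2 fold changes of *NEFL*, *NEFM*, *NEFH*, *INA*, *PRPH*, *MAP2*, *STMN2* and *DCX* were above 0 in all 15. With a library left out, those of *MAPT* ranged from -0.31 to 0.66, of *GAP43* from -0.14 to 0.0063, of *GSK3B* from -0.15 to 0.013, of *DYNC1H1* from -0.14 to 0.22, of *PTBP1* from -0.042 to 0.25 and of *THY1* from -0.56 to 1.27, and that of *THY1* was -0.072 with the highest transcript only. The cause of these shifts was not tested, apart from the transcript alternative for *DCX*, which leaves out the transcript that holds all counts of 1 library.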

Other observations

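Some genes of the further lists differed widely between replicates of 1 or both groups (picked with their values in view). *PTBP2*, a splicing repressor of developing neurons, was at 23.1 CPM in vector control replicate 1 and between 2.47 and 2.85 CPM in the other 3 libraries. *ELAVL4*, which binds and stabilizes neuronal mRNAs, was at 78.9 and 12.5 CPM in the vector control and at 24.6 and 129 CPM in OE. *CAP1*, an actin-binding protein, was at 2.71 CPM in vector control replicate 1 and between 232 and 270 CPM in the other 3 libraries. *NCAM1*, a neural adhesion molecule, was at 19.4 and 58.0 CPM in the vector control and at 94.8 and 30.4 CPM in OE.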
